A study of Mus musculus with 6 samples.

Results

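An interval to which a miRNA was ligated could be listed under more than 1 miRNA in these libraries, and the intervals described here are those listed under miRNAs of different numbers. The deposited lists of miRNA target clusters gave, on each line, a genomic interval, its strand, a miRNA name and a score. Target clusters were chosen when the same chromosome, start, end and strand stood under at least 2 names whose miRNA numbers differed, after the letter and the arm had been taken off the name. let-7 and miR-98 counted as 1 number, and so did miR-466, miR-467, miR-669 and miR-297, called the miR-466 group below. Such a target cluster is called co-listed here. There were 1811 of 18029 target clusters in WT, 1667 of 27152 in Mov10 Deletion replicate 1 and 535 of 12379 in Mov10 Deletion replicate 2, which made 4013 of 57560 in all. The rule used coordinates and names only and set no score, but every listed entry had a score of at least 3.

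The libraries were AGO2 immunoprecipitations (IP) from P0 brain of C57Bl/6J mice, prepared by chimeric eCLIP, which joins a miRNA end to end with the RNA held beside it in Argonaute 2, so that a single read carries both. WT was represented by 1 library and *Mov10* Deletion by 2, and each was sequenced beside a size-matched input. *Mov10* Deletion mice came from a cross of the *Mov10* cKO, whose floxed exons are removed by Emx1-Cre, with *Mov10* heterozygous mutant mice. The paper describes Emx1-Cre as depleting MOV10 in excitatory neurons of neocortex and hippocampus, whereas the libraries came from whole brain. The mutant allele from the heterozygous parent is not limited to these neurons, so other cells can carry it too. MOV10 is an RNA helicase that binds AGO2. The series asks how its loss changes the sites that AGO2 and miRNAs occupy. With 1 WT library, genotypes were not tested against each other, and the intervals given below are exact 95% binomial intervals that cover counting error only.

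miRNAs guide Argonaute proteins to messenger RNAs, mostly in 3′ untranslated regions, by pairing of the seed, nucleotides 2 to 8 of the miRNA, with the target. miRNAs of 1 seed family can pair with the same site, whereas miRNAs with different seeds need separate sites, which may lie close together on 1 transcript. miR-124 and miR-9 are abundant in developing neurons and neural progenitors, miR-125 and let-7 rise as neural progenitors mature, and miR-7 is enriched in neurons. A co-listed target cluster says that chimeric reads of different miRNAs fell into 1 interval. It does not say that they paired with the same bases or sat on the same molecule.

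The mature sequences below belong to the frequent co-listed pairs. They are RefSeq entries on GRCm38.p6, matched by name and written 5′ to 3′, with the seed in capitals. The first set holds miRNAs whose seeds differ and which shared many intervals.
miR-9-5p: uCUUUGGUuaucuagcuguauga
miR-125b-5p: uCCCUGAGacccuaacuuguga
let-7c-5p: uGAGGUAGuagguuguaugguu
miR-181a-5p: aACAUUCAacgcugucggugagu
miR-26a-5p: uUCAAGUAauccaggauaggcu
miR-128-3p: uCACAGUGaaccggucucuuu
miR-7a-5p: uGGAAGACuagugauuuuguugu
The second set holds miRNAs of different numbers with a common seed, in 4 families.
miR-15a-5p: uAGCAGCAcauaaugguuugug
miR-16-5p: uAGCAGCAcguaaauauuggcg
miR-17-5p: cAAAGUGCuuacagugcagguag
miR-20a-5p: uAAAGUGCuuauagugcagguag
miR-93-5p: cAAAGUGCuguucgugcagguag
miR-106b-5p: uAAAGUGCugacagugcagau
miR-130a-3p: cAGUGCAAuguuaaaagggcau
miR-301a-3p: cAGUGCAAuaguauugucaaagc
miR-103-3p: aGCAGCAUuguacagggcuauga
miR-107-3p: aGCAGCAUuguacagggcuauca
miR-124-3p, miR-466i-5p, miR-30d-5p, miR-23b-3p and miR-135b-5p were also named at co-listed clusters.

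The libraries differed in depth, and replicate 2 of *Mov10* Deletion was the shallowest. The lists held 22074 entries in WT, 30526 in replicate 1 and 13468 in replicate 2. All 7 neuronal markers (such as *Tubb3*, *Dcx* and *Snap25*) held a target cluster in every library, and none of 6 markers of other tissues (such as *Alb* and *Myh6*) did. Of 6 markers of radial glia and astrocytes, 3 did in WT, 4 in replicate 1 and 4 in replicate 2, with *Gfap* in none. Of 4 markers of the oligodendrocyte lineage, 2, 3 and 2 did in the same order. At *Mov10* itself, AGO2 clusters numbered 11 in WT and 9 in each *Mov10* Deletion library, and none of the libraries had a target cluster there. Such clusters report AGO2 binding and are no measure of *Mov10* expression. The 2 *Mov10* Deletion libraries had 4052 target clusters with identical coordinates, whereas WT shared 11 with replicate 1 and 8 with replicate 2, so positions in the *Mov10* Deletion libraries were not set independently of each other.

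Co-listed clusters made up 10.04% (9.61 to 10.5) of the target clusters in WT, 6.14% (5.86 to 6.43) in replicate 1 and 4.32% (3.97 to 4.69) in replicate 2. The 3 intervals did not overlap, and the mean over the *Mov10* Deletion libraries was 5.23% ± 1.29 (SD, n = 2). The *Mov10* Deletion libraries were thus separated from each other as well as from WT, and the genotype cannot be told apart from the library. These were whole brains, in which fewer cells of a type and less RNA per cell cannot be told apart. Most co-listed clusters held 2 numbers, namely 1374 (75.9%) in WT, 1319 (79.1%) in replicate 1 and 433 (80.9%) in replicate 2. Just inside the rule, the weaker of the 2 numbers had a median score of 3.90 in WT, 3.84 in replicate 1 and 3.80 in replicate 2, close to the lowest score in the lists, 3. Just outside it were target clusters with several names of a single number, 390, 327 and 102 in the same order, of which 227, 193 and 63 were let-7. The sources used here do not say how the score was made, so scores and shares of summed scores are given as they stand in the lists, in no known unit.

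The share of target clusters that were co-listed was larger where the score was higher. A rise of this kind is partly built into the rule. Both numbers had to score at least 3, so a highest score near 3 left little room for a second number. Among clusters whose highest score was between 3 and 4, 2.35% (2.00 to 2.74) were co-listed in WT, 1.201% (1.01 to 1.42) in replicate 1 and 1.26% (0.982 to 1.59) in replicate 2. At a highest score of 50 or more, the share was 54.3% (47.5 to 61.0) in WT, 66.1% (56.95 to 74.5) in replicate 1 and 66.7% (49.0 to 81.4) in replicate 2. WT lay above both *Mov10* Deletion libraries below a score of 10, and from 10 upward the intervals of the 3 libraries overlapped. The share also grew with the width of the cluster. In WT it was 2.45% (1.88 to 3.15) at widths up to 50 nt and 44.6% (39.1 to 50.2) above 150 nt, and in replicate 2 it was 1.47% (1.08 to 1.95) and 23.3% (16.4 to 31.4). Co-listed clusters were wider than clusters of a single number, with medians of 99 against 76 nt in WT, 93 against 65 nt in replicate 1 and 95 against 67 nt in replicate 2. The part of score and width in the differences between libraries was not tested.

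**Figure D1:**
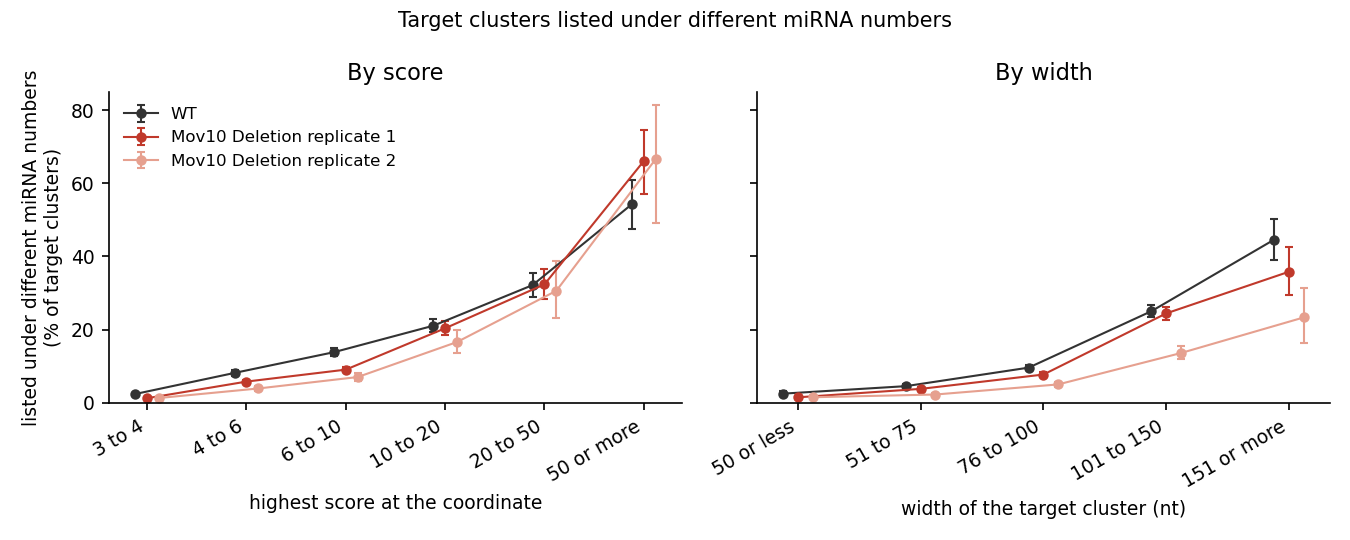
Share of target clusters listed under different miRNA numbers (%), by the highest score at the coordinate (left) and by cluster width in nt (right), in WT (dark), Mov10 Deletion replicate 1 (red) and replicate 2 (pale). Points are shares and bars exact 95% binomial intervals, and in every library the share climbs from under 3% in the lowest class to over 20% in the highest.

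Pairs with miR-124 led every library. miR-124 and miR-9, both tied to neuronal differentiation, stood together at 337 coordinates in WT (18.6% of the co-listed), 242 in replicate 1 (14.5%) and 78 in replicate 2 (14.6%). miR-124 and miR-125 shared 230, 138 and 52, and let-7 and miR-124 shared 200, 203 and 70 in the same order. miR-124 was listed at 67.2% (65.0 to 69.4) of the co-listed clusters in WT, 59.0% (56.6 to 61.3) in replicate 1 and 61.9% (57.6 to 66.0) in replicate 2, and at 51.7%, 39.2% and 40.1% of all target clusters. It was the number with the highest summed score at 39.5% of the co-listed clusters in WT, 35.3% in replicate 1 and 38.9% in replicate 2.

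**Figure D2:**
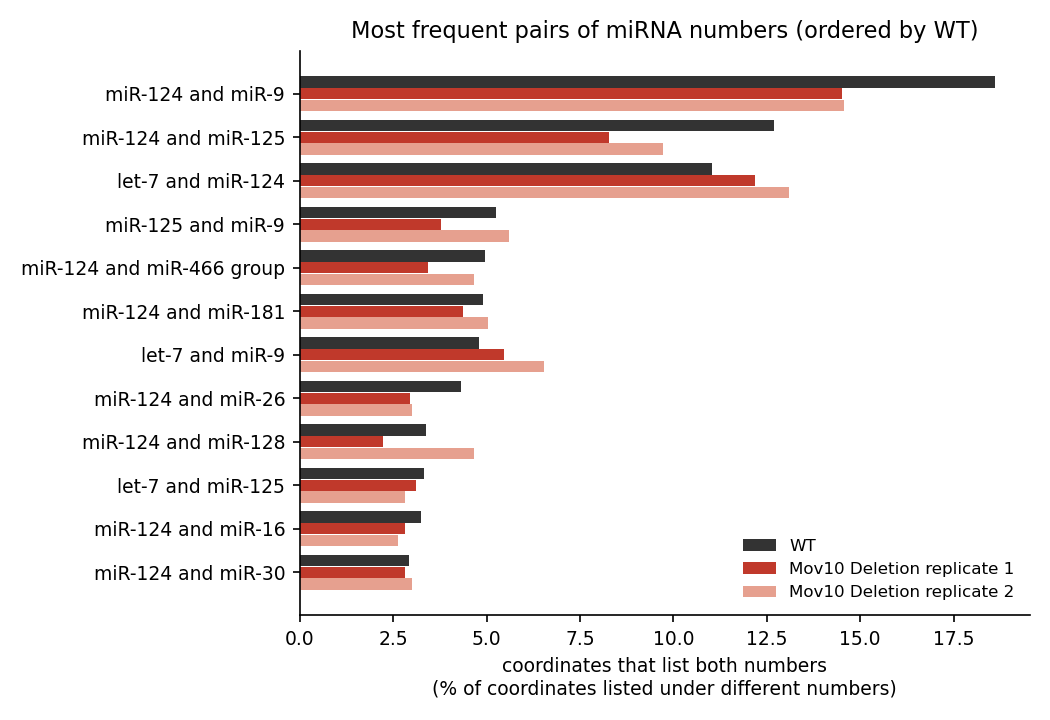
The 12 pairs of miRNA numbers most frequent in WT, as a share of the co-listed coordinates (%) in each library, which may add to more than the whole because a coordinate can hold several pairs. Bars are dark for WT, red for Mov10 Deletion replicate 1 and pale for replicate 2, and miR-124 with miR-9 is the longest bar in all 3.

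Seen from the side of each miRNA, miR-124 clusters were co-listed less often than those of miR-9, miR-125 and let-7. Of the 9314 target clusters of miR-124 in WT, 13.1% (12.4 to 13.8) were co-listed, against 23.6% of 2189 for miR-9, 26.9% of 1384 for miR-125 and 24.1% of 1322 for let-7. Such an order is partly built into the counts, since a shared coordinate is a smaller part of a longer list. The 337 WT coordinates of miR-124 with miR-9 were 3.62% of the miR-124 clusters and 15.4% of the miR-9 clusters. The miR-466 group, a set of rodent miRNAs expressed from repeated copies, was lower than these 4 in each library, with 10.7% (9.21 to 12.4) in WT, 6.39% in replicate 1 and 4.81% in replicate 2. Its most frequent partner was miR-124, at 90, 57 and 25 coordinates. It met let-7 at 37, 29 and 7 coordinates, miR-9 at 31, 26 and 6, and miR-125 at 24, 8 and 7. Among the 25 most frequent numbers of WT, miR-93 had the highest share, 68.7% (56.2 to 79.4) of 67. miR-20 followed with 64.9% (54.4 to 74.5) of 94 and miR-17 with 57.3% (49.2 to 65.2) of 157. The intervals of these 3 miRNAs of 1 seed overlapped. In WT the most frequent partner of miR-93 and miR-20 was miR-17, and that of miR-17 was miR-20. The order differed in the *Mov10* Deletion libraries. Among the 25 most frequent numbers there, miR-7 was highest, with 33.6% (25.4 to 42.6) in replicate 1 and 32.3% (20.9 to 45.3) in replicate 2. miR-17 stood at 32.8% (26.3 to 39.8) and 22.0% (13.6 to 32.5), and miR-93 and miR-20 were not among these 25.

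The share of the score that the leading number of a co-listed cluster can hold is limited by the rule. A second number had to be listed, with a score of at least 3. The strongest number held a median of 62.3% of the summed score in WT, 61.2% in replicate 1 and 59.9% in replicate 2. It held 90% or more at 75 of the 1811 co-listed clusters in WT, 57 of 1667 in replicate 1 and 11 of 535 in replicate 2. At a summed score of 15.2, the median of the co-listed clusters in WT, a second number scoring 3 already keeps the leader below 90%. Low counts are thus built into the rule, and how evenly miRNAs shared a cluster was not tested. Of the 337 coordinates of miR-124 with miR-9 in WT, miR-124 scored higher at 201 and miR-9 at 136. In these comparisons the scores of all names of a number at a coordinate were summed, and let-7 often stood under several names. With let-7, miR-124 scored higher at 102 and let-7 at 96 of 200. miR-9 scored higher than miR-125 at 54 of their 95 coordinates in WT, 40 of 63 in replicate 1 and 19 of 30 in replicate 2.

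The sequences above allow the seeds to be compared wherever every name at a coordinate had an entry, which was the case at 488 co-listed clusters in WT, 542 in replicate 1 and 164 in replicate 2. No cluster that names miR-124-3p, miR-466i-5p, miR-30d-5p or another miRNA without an entry is among them, so these shares describe the readable clusters only. The numbers shared no seed at 78.3% (74.4 to 81.9) of these in WT, 84.5% (81.2 to 87.4) in replicate 1 and 83.5% (77.0 to 88.9) in replicate 2. Counted by pair rather than by coordinate, a common seed was found in 283 of 7203 pair occurrences in WT, 201 of 6803 in replicate 1 and 46 of 2229 in replicate 2, with 2900, 2646 and 815 that could not be read.

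Among pairs whose seeds could be read and differed, which leaves out every pair with miR-124-3p, miR-125 with miR-9 was the most frequent in WT and let-7 with miR-9 in both *Mov10* Deletion libraries. miR-125 and miR-9 met at 95, 63 and 30 coordinates in WT, replicate 1 and replicate 2. let-7 and miR-9 met at 87, 91 and 35, and let-7 and miR-125 at 60, 52 and 15. Outside rRNA and the mitochondrial genome, described below, these counts were 76, 46 and 17 for miR-125 with miR-9, 62, 65 and 17 for let-7 with miR-9, and 40, 35 and 4 for let-7 with miR-125, so that the first of these pairs equalled the second in replicate 2. miR-181, a regulator known from lymphocytes and also present in brain, met miR-9 at 38, 25 and 16, let-7 at 30, 30 and 15, and miR-125 at 36, 21 and 8. miR-26 met miR-9 at 33, 18 and 4 and let-7 at 24, 15 and 3. miR-128, a neuronal miRNA, met miR-125 at 23, 13 and 7, miR-9 at 21, 19 and 12, and let-7 at 16, 13 and 7. miR-16 met miR-9 at 26, 19 and 5 and miR-125 at 16, 19 and 6. miR-125 and miR-7 met at 16, 11 and 8 coordinates, of which 11, 7 and 6 lay on the strand opposite to *Cdr1* described below.

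The most frequent common-seed pairs came from the families printed in the second set, and others, such as miR-25 with miR-92 at 4 coordinates in WT, were rare. miR-15 and miR-16, transcribed from shared clusters and known as brakes on the cell cycle, met at 42 coordinates in WT, which was 42.4% of the 99 miR-15 clusters and 16.3% of the 257 miR-16 clusters. They met at 18 coordinates in replicate 1 and 7 in replicate 2, which was 9.73% and 8.64% of the miR-15 clusters. miR-17 and miR-20, members of a cluster known to promote proliferation, met at 38, 25 and 4 coordinates. miR-17 met miR-93 at 34, 18 and 5 and miR-106 at 32, 26 and 4. miR-130 and miR-301 met at 35, 17 and 5, and miR-103 and miR-107 at 11, 8 and 2. Of the pair occurrences with readable seeds, 95 of 4303 in WT joined a common seed with genes within 10 kb of each other in the genome, as did 56 of 4157 in replicate 1 and 12 of 1414 in replicate 2. These were miR-15 with miR-16, miR-17 with miR-20 and miR-106 with miR-93 in most cases. Neighbouring genes with different seeds gave 39, 49 and 9 pair occurrences.

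Co-listed clusters lay on enriched AGO2 clusters more often than clusters of a single number did. An AGO2 cluster was called enriched where IP exceeded input by 3 or more on the log2 scale with a −log10 p not under 3. Over all target clusters, 15% lay on such a cluster in WT, 11.7% in replicate 1 and 12% in replicate 2. Of the co-listed clusters, 40.8% (38.5 to 43.1) did in WT, 37.7% (35.4 to 40.1) in replicate 1 and 39.8% (35.6 to 44.1) in replicate 2, against 12.2% (11.7 to 12.7), 9.97% (9.61 to 10.3) and 10.7% (10.2 to 11.3) of the clusters of a single number. The difference was not the same at every score. At a highest score between 4 and 6, the share in WT was 28.4% (24.1 to 33.0) of the co-listed and 8.31% (7.54 to 9.14) of the single-number clusters. At 20 or more the shares were 57.8% (52.6 to 62.8) and 54.9% (50.99 to 58.9) in WT, 56.1% (49.7 to 62.4) and 57.5% (52.4 to 62.4) in replicate 1, and 52.2% (39.8 to 64.4) and 64.9% (55.4 to 73.6) in replicate 2, with overlapping intervals. Among the frequent pairs in WT, miR-124 with the miR-466 group stood at 24.4% (16.0 to 34.6), miR-125 with miR-9 at 30.5% (21.5 to 40.8) and let-7 with miR-9 at 50.6% (39.6 to 61.5). The first and the last of these had intervals that overlapped in replicate 1, at 19.3% (10.05 to 31.9) and 34.1% (24.5 to 44.7), and in replicate 2, at 36% (17.97 to 57.5) and 37.1% (21.5 to 55.1). They do not span all pairs, as miR-124 with miR-16 stood at 52.5% (39.1 to 65.7) in WT. Of the coordinates of the named 3 pairs in WT, 11 of 90, 19 of 95 and 25 of 87 lay in rRNA or on the mitochondrial genome.

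Co-listed clusters also lay nearer to the ends of genes. The last 1000 nt of a RefSeq gene on the same strand held 29.4% (27.3 to 31.5) of the co-listed clusters in WT, 25.1% (23.0 to 27.2) in replicate 1 and 30.1% (26.2 to 34.2) in replicate 2. Of the clusters of a single number, 16.6% (16.0 to 17.2), 12.6% (12.2 to 13.1) and 14.0% (13.3 to 14.6) did. The median distance from a cluster to the end of its protein-coding gene was 2250 nt for co-listed and 11580 nt for single-number clusters in WT, 2999 and 21968 nt in replicate 1, and 2537 and 16833 nt in replicate 2. The distances run along the genome and count introns. A protein-coding gene on the same strand held 92.2% of the co-listed clusters in WT, 91.9% in replicate 1 and 85.2% in replicate 2, against 95.6% of the single-number clusters in each library. No sense gene was found for 73, 64 and 29 co-listed clusters.

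**Figure D3:**
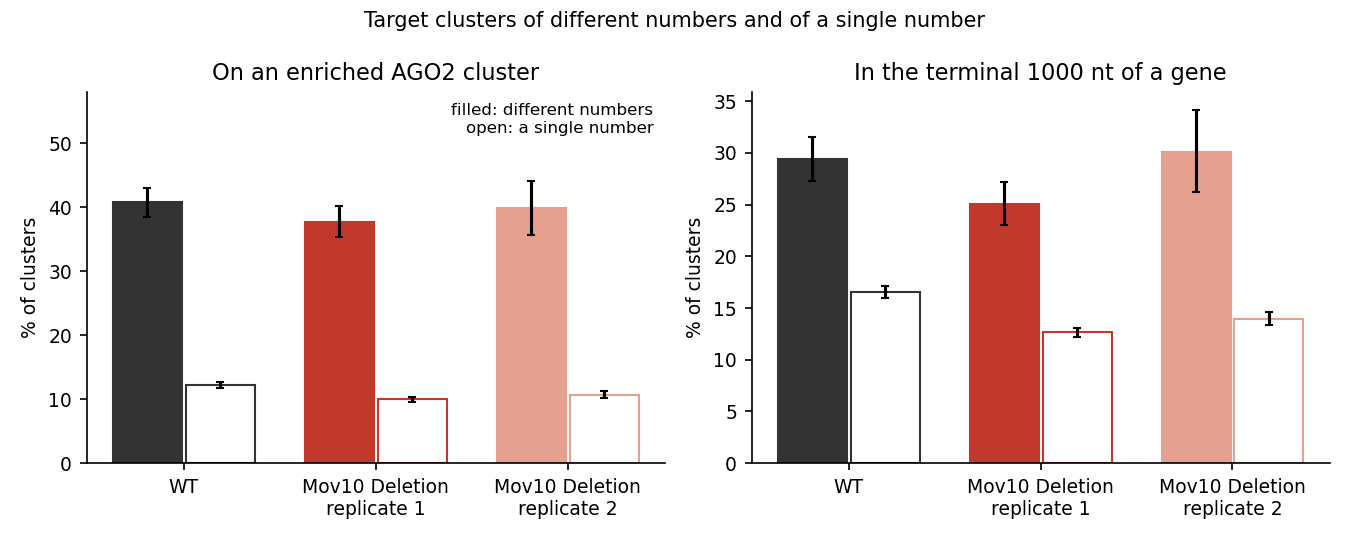
Share of target clusters (%) on an enriched AGO2 cluster (left) and in the terminal 1000 nt of a gene (right) for clusters of different numbers (filled) and of a single number (open) in each library. Bars carry exact 95% binomial intervals, and the filled bar is the taller in all 6 comparisons.

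Ribosomal RNA took up the coordinates with the most numbers. The nuclear 18S rRNA is represented in the mm10 annotation by *Rn18s-rs5* (chr17:39846354-39848202, plus strand), a pseudogene in RefSeq, and the mitochondrial rRNAs by *mt-Rnr1* and *mt-Rnr2*. In each library the 5 coordinates with the most numbers lay in these genes. The widest range of numbers was found at chr17:39847743-39847819 in WT, with 36 numbers, and at chr17:39847740-39847841 in the *Mov10* Deletion libraries, with 57 numbers in replicate 1 and 38 in replicate 2. miR-124-3p had the highest score there, 349 in WT, 375 in replicate 1 and 144 in replicate 2, followed by miR-125b-5p with 80.0, 93.3 and 41.0. All 17 target clusters in *Rn18s-rs5* were co-listed in WT, as were 20 of 20 in replicate 1 and 19 of 20 in replicate 2, and of these 0, 0 and 2 lay on an enriched AGO2 cluster. In *mt-Rnr1* (the mitochondrial 12S rRNA), let-7c-5p reached the highest score of all co-listed clusters, 3153 in WT, 1498 in replicate 1 and 711 in replicate 2. At *mt-Rnr2* (16S rRNA), miR-9-5p scored 1678, 1019 and 578. Of the co-listed clusters with 10 or more numbers, 16 of 19 in WT, 15 of 17 in replicate 1 and 8 of 8 in replicate 2 lay in these rRNAs or elsewhere on the mitochondrial genome. These regions held 10.5%, 7.38% and 8.86% of the summed score of a library. According to the paper, whole reads that mapped to repeats or rRNA were set aside first. miRNAs were then sought in reads that matched neither these sequences nor the genome. The rest of each such read was mapped to the genome, and no second repeat filter is named for that step. How the entries in rRNA arose was not tested.

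Outside rRNA, the noncoding RNAs *H19* and *Malat1* gathered many numbers. *H19*, an imprinted lncRNA high in fetal tissues, held a cluster at chr7:142575788-142575857 in WT and chr7:142575784-142575857 in the *Mov10* Deletion libraries, 70 and 74 nt wide and on an enriched AGO2 cluster in each. It was listed under 10 numbers in WT, 8 in replicate 1 and 9 in replicate 2, and 7 of them stood in all 3 libraries, namely miR-130, miR-301, miR-199, miR-152, miR-148, miR-19 and miR-124. miR-130a-3p led with scores of 702, 499 and 273, followed by miR-301a-3p, which has the same seed, with 181, 123 and 40.6. miR-199a-5p scored 53.6, 49.6 and 28.5, and miR-19b-3p 37.6, 36.3 and 11.2. The order of the first 3 numbers was the same in the 3 libraries. *Malat1*, a nuclear lncRNA, held 8 co-listed clusters of 13 target clusters in WT, 10 of 13 in replicate 1 and 5 of 11 in replicate 2. At its cluster chr19:5798702-5798859 in WT and the clusters overlapping it, miR-124-3p scored 805 in WT, 790 in replicate 1 and 259 in replicate 2, and miR-125b-5p 28.5, 26.7 and 7.99. Unlike that of *H19*, this *Malat1* cluster lay on an enriched AGO2 cluster in no library. *Rny3*, a small Y RNA, was led by miR-30c-5p, with 260, 166 and 41.6.

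Co-listed clusters were spread over many genes, and 15 genes in WT, 22 in replicate 1 and 4 in replicate 2 held 5 or more. *Map1b*, which binds microtubules in growing axons, held 10 in WT, 12 in replicate 1 and 7 in replicate 2, of 24, 32 and 27 target clusters. *Sox11*, a transcription factor of young neurons, held 11, 5 and 2, of 17, 14 and 9. *Nova1*, a neuronal splicing factor, held 9, 3 and 4, of 16, 15 and 10. *Celf2*, an RNA-binding protein, held 4, 9 and 0, of 57, 96 and 42. *Dpysl3*, a cytoskeletal protein of growth cones, held 1, 3 and 4, of 6, 12 and 11. In all, 1323 of 6390 genes with a target cluster held a co-listed one in WT (20.7%), 1189 of 7759 in replicate 1 (15.3%) and 450 of 5418 in replicate 2 (8.31%), and 227 genes did in all 3.

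Co-listed clusters of 1 library often met a co-listed cluster of another. With an overlap of at least 1 nt on the same strand, 41.0% (38.8 to 43.3) of the WT clusters met one in at least 1 *Mov10* Deletion library, and 43.7% (41.3 to 46.1) of those in replicate 1 and 63.6% (59.3 to 67.6) of those in replicate 2 met one in another library. With WT alone as the other library, the shares were 41.0% in replicate 1 and 55.1% in replicate 2. The 273 overlaps between the *Mov10* Deletion libraries all had identical coordinates, which were not set independently. In WT, 76.6% (74.6 to 78.6) of the co-listed clusters lay on a target cluster of any kind in replicate 1, against 36.3% (35.6 to 37.1) of the single-number clusters. The co-listed clusters in WT were also wider and had higher scores (median highest score 8.75 against 4.55). The part of width and score in this difference was not tested. Co-listed clusters in all 3 libraries overlapped at 242 WT coordinates in 157 genes, with 29 coordinates outside sense genes, and at 167 of them at least 2 numbers were the same in the 3 libraries. The pairs repeated in this way were miR-124 with miR-9 at 52 coordinates, let-7 with miR-124 at 37, miR-124 with miR-125 at 26, and let-7 with miR-9 and miR-125 with miR-9 at 23 each. Outside rRNA and the mitochondrial genome, 215 of the 242 coordinates were left, and the pairs stood at 35, 16, 13, 8 and 10 in the same order. Neighbouring coordinates of 1 gene counted separately, as at *Ids*, which gave 3 of the 8 for let-7 with miR-9.

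Ranked by the lowest of the 3 best scores, the first 20 genes with an overlap in all libraries included, beside the rRNAs, *H19*, *Malat1* and *Rny3*, 10 genes led by miR-124-3p. *Ids*, a lysosomal sulfatase, was listed for miR-124-3p with scores of 463 in WT, 469 in replicate 1 and 201 in replicate 2 and for miR-7a-5p with 25.9, 52.2 and 22, at chrX:70344056-70344151 in WT, 987 nt from the gene end, and let-7 and miR-9 were also named there in all 3. The *Ids* cluster was 96 nt wide in WT and 220 nt in the *Mov10* Deletion libraries. The wider one also overlapped neighbouring WT clusters, where miR-124 scored 113 and 198 and miR-7 34.6 and 29.3. *Col4a1*, a chain of basement membrane collagen, joined miR-124-3p (109, 143 and 83.1) to let-7c-5p (6.98, 29.4 and 8). *Tuba1a*, an α-tubulin of young neurons, joined miR-124-3p (134, 130 and 59.1) to miR-7a-5p (18.6, 23.9 and 13.5) and miR-3099-3p. In *Actb*, the cytoskeletal actin, miR-124-3p scored 80.0, 104 and 57.4 and let-7c-5p 10.1, 5.08 and 7.78. *Kdm6b*, a histone demethylase, joined miR-124-3p (114, 65.3 and 26.1) to miR-138-5p (27, 15 and 10). *Gga2*, a Golgi adaptor, joined miR-124-3p (58.6, 64.8 and 28.4) to miR-9-5p (3.46, 14.01 and 3). Its cluster was 71 nt wide in WT and 146 nt in the *Mov10* Deletion libraries. The abutting WT cluster, which the wider one also overlapped, had miR-124 at 72.6 and miR-9 at 13.7. Scores of such loci therefore come from intervals of unlike width and are not compared between libraries. The *Tuba1a* cluster lay on an enriched AGO2 cluster in no library, whereas those of *Ids*, *Col4a1*, *Actb*, *Kdm6b* and *Gga2* did in all 3.

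In the same ranking, 4 further loci were led by another miRNA than miR-124. *Zfhx3*, a homeobox transcription factor, was led by miR-9-5p (137, 74.5 and 28.1) with let-7c-5p (10.5, 9.98 and 4.02). In replicate 2 the highest let-7 score there was that of let-7i-5p, 16.4. At the WT cluster that abuts this one, let-7 and miR-9 both reached 30.3. *Srgap3*, a GTPase-activating protein of neuronal migration, was led by miR-342-3p (78.0, 57.2 and 26.5) with miR-466i-5p (4.77, 4.22 and 7). *Map1b* joined miR-9-5p (36.9, 40.8 and 25.5) to miR-125b-5p (31.6, 27.5 and 8.19), and *Mapt*, which encodes the microtubule protein tau, joined miR-9-5p (27.4, 22.6 and 19.7) to miR-125b-5p (19.8, 3.93 and 11.8) and miR-124-3p (4.45, 9.47 and 4.18). The *Zfhx3* cluster lay on an enriched AGO2 cluster in all 3 libraries, and the *Srgap3*, *Map1b* and *Mapt* clusters did in none. In *Arhgdia*, *Qser1* and *Dpysl3* miR-124 was the only number common to the 3 libraries. *D430041D05Rik* joined miR-124-3p (123, 57.01 and 20.5) to miR-9-5p (3, 4 and 3). Not all of these loci were close to a gene end. In WT the distance along the genome was 4910 nt at *Zfhx3*, 4047 nt at *Mapt* and 11239 nt at *Map1b*. It was 228961 nt at *Srgap3* and 114801 nt at *D430041D05Rik*.

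**Figure D4:**
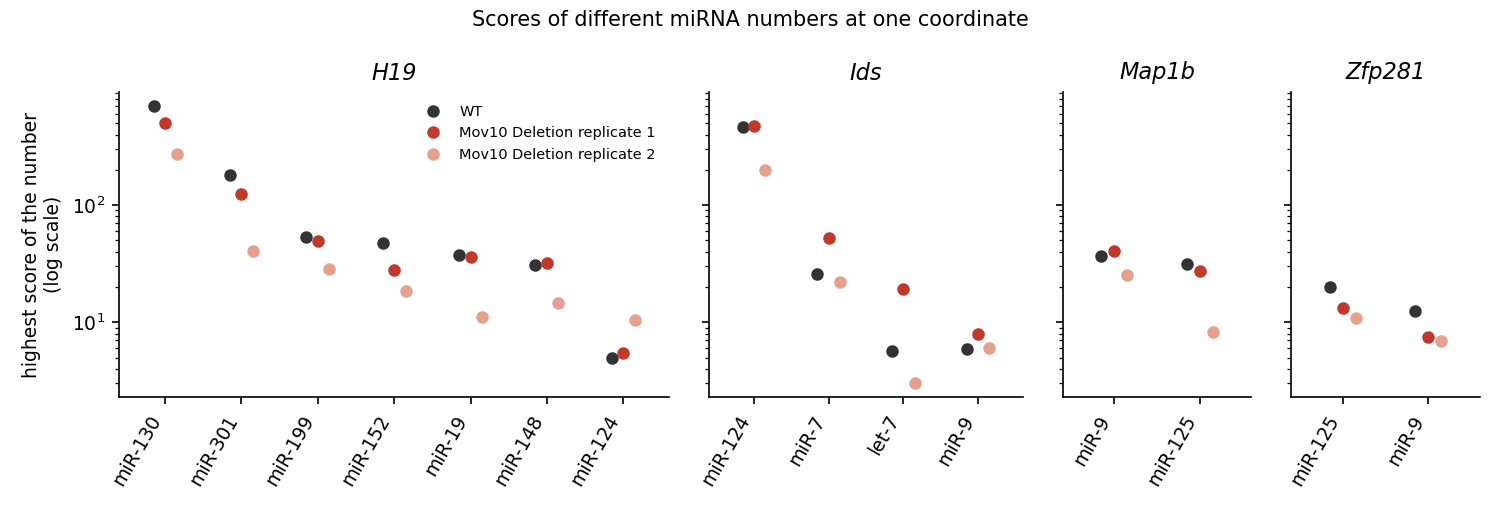
Highest score of each miRNA number (log scale) at the co-listed cluster of H19, Ids, Map1b and Zfp281 in WT (dark), Mov10 Deletion replicate 1 (red) and replicate 2 (pale), 1 point per library. At H19 the miR-130 points (273 to 702) lie above those of miR-301 (40.6 to 181), and at Map1b miR-9 and miR-125 lie close together in WT (36.9 and 31.6). The Ids cluster is 96 nt wide in WT and 220 nt in the Mov10 Deletion libraries.

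Among clusters whose numbers shared no seed, 16 WT coordinates in 12 genes overlapped such clusters in both *Mov10* Deletion libraries, and in 5 of the 12 genes the common pair was miR-125 with miR-9. In *Zfp281*, a zinc finger transcription factor, miR-125b-5p scored 20.03 in WT, 13.3 in replicate 1 and 10.9 in replicate 2 and miR-9-5p 12.5, 7.44 and 6.88, on an enriched AGO2 cluster in all 3 libraries (chr1:136625931-136626004 in WT). In *Dyrk2*, a protein kinase, the scores were 19.6, 10.4 and 4 for miR-125b-5p and 16.4, 17.4 and 11.96 for miR-9-5p. In *Daam1*, a formin that assembles actin, they were 22.5, 21.5 and 8 for miR-125b-5p and 12.4, 5 and 11 for miR-9-5p. *Dcx*, the doublecortin of migrating neurons, had 31.4, 19.98 and 5 for miR-125b-5p and 12.6, 7.83 and 4.93 for miR-9-5p. *Dync1i2*, a dynein intermediate chain, had 3.99, 14.9 and 11.0 for miR-125b-5p and 8.05, 3.02 and 4.02 for miR-9-5p. Which of the 2 miRNAs scored higher differed between libraries at *Dyrk2*, *Daam1* and *Dync1i2*. Unlike *Zfp281*, the clusters of *Dyrk2*, *Daam1* and *Dync1i2* lay on an enriched AGO2 cluster in no library, and that of *Dcx* did in WT only. In WT the distance to the gene end was 4387 nt at *Zfp281*, 2160 nt at *Dyrk2* and 1306 nt at *Daam1*. It was 75115 nt at *Dcx* and 27263 nt at *Dync1i2*. *Zfhx4* joined let-7c-5p (33.8, 15.7 and 7.82) to miR-9-5p (24.8, 13 and 5.97). In *Rev3l*, *Zfhx2*, *Runx1t1*, *Jarid2* and *Rian* 1 number was common to the 3 libraries (miR-3059, miR-9, miR-9, miR-19 and miR-22), and in *Eif4g2* none was.

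The strand opposite to *Cdr1* carried a run of co-listed clusters led by miR-7, and was singled out after its values had been seen. A circular RNA with many miR-7 sites is known from the antisense strand of *Cdr1*, but the lists name no transcript, and the values here are those of the strand only. RefSeq places *Cdr1* at chrX:61183246-61185558 on the minus strand. On the plus strand, from 1000 nt before to 1000 nt after that span, 22 of 25 target clusters were co-listed in WT, 20 of 23 in replicate 1 and 14 of 23 in replicate 2. miR-7 was named at every one of them and had the highest summed score at every one of them, with a median of 82.4% of the score in WT, 82.4% in replicate 1 and 84.6% in replicate 2. The highest score of miR-7 at a cluster ran from 39.6 over a median of 106 to 448 in WT, from 29.6 over 58.9 to 155 in replicate 1, and from 21.0 over 30.5 to 72.1 in replicate 2. miR-124 joined it at 16, 12 and 5 clusters and miR-125 at 11, 7 and 6. The WT cluster at chrX:61183679-61183805 listed 9 numbers, with miR-7a-5p at 448, miR-125b-5p at 97.6, miR-7b-5p at 32.4 and miR-124-3p at 32.2. miR-671, a miRNA known for a nearly complementary site in that circular RNA, was named at 3, 3 and 2 of the clusters. Enriched AGO2 clusters lay under 19 of the 22, 13 of the 20 and 14 of the 14.

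**Figure D5:**
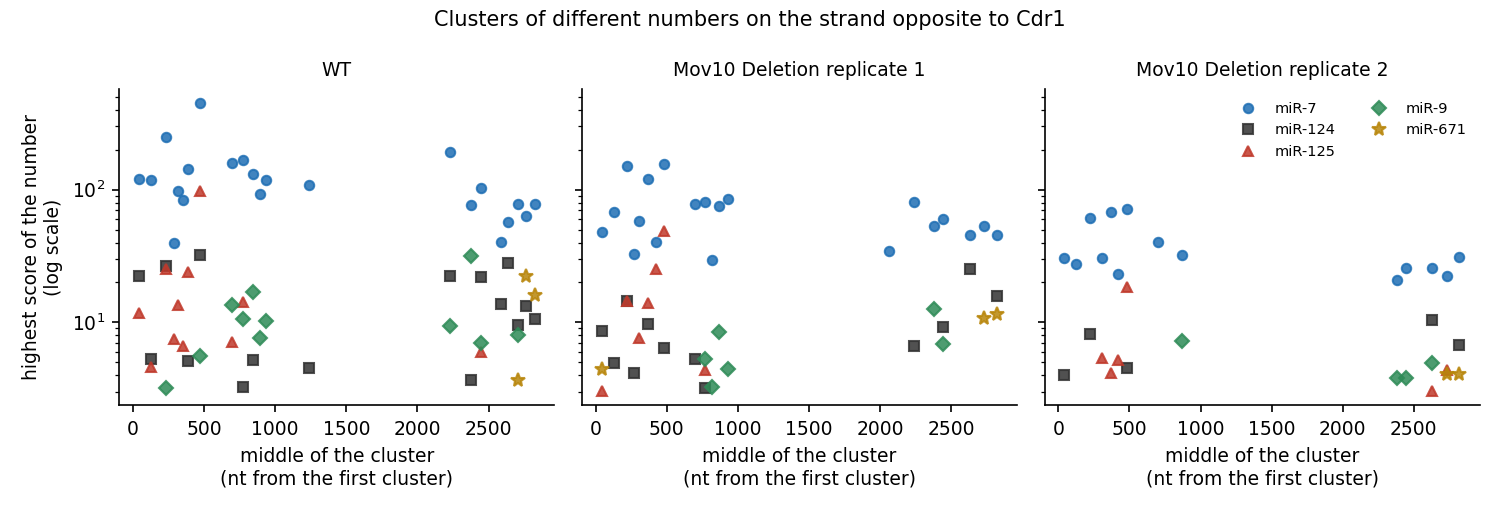
Highest score (log scale) of 5 miRNA numbers at each co-listed cluster on the strand opposite to Cdr1, against the middle of the cluster in nt from the first cluster, in the 3 libraries. The miR-7 circles, at 39.6 to 448 in WT, lie above the other symbols of the same cluster.

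Many genes of neural fate and of microtubules held a co-listed cluster. Of the neural fate regulators, 18 of the 30 genes with a target cluster held a co-listed one in WT, 19 of 29 in replicate 1 and 7 of 24 in replicate 2. *Sox11*, *Bcl11b*, *Foxp1*, *Nfib* and *Ptbp2* were among those that did in all 3 libraries. *Ptbp2* encodes the neuronal splicing repressor of its family, and *Bcl11b* a transcription factor of cortical projection neurons. Of the microtubule genes, 14 of 25 did in WT, 9 of 24 in replicate 1 and 9 of 18 in replicate 2, with *Map1b*, *Map2*, *Mapt*, *Dcx*, *Dclk1*, *Stmn2*, *Tuba1a* and *Tubb3* in all 3. Of the miRNA pathway genes, 11 of 19 did in WT, 8 of 19 in replicate 1 and 2 of 16 in replicate 2, and those in all 3 were *Dicer1*, which cuts miRNA precursors, and *Tnrc6c*, a scaffold of the silencing complex. Of the cell cycle genes, 2 of 10 did in WT (*Ccnd1* and *Ccnd2*), 0 of 12 in replicate 1 and 0 of 7 in replicate 2. Beside these stand the shares over all genes with a target cluster, 20.7%, 15.3% and 8.31%. The part of the number of target clusters per gene in these counts was not tested.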

How the data were processed

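The authors prepared AGO2 chimeric eCLIP libraries with size-matched inputs and mapped them to mm10 with UMI-tools 1.1.1, cutadapt 3.2, STAR 2.7.7a and Bowtie 1.2.3 (submitters' processing notes), and annotated clusters with miRBase miRNA names. The deposited AGO2 cluster files hold a log2 ratio of IP over input and a −log10 p per cluster. The deposited target cluster files hold a score per cluster and miRNA name whose making is not given in the sources used here. Inputs entered only through the log2 ratio and the −log10 p of the AGO2 clusters, both of which compare IP with input in the paper.

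Entries with identical chromosome, start, end and strand were collapsed in Python 3.11.15 (pandas 2.3.3, SciPy 1.17.1), and overlaps needed at least 1 nt on the same strand. Genes were RefSeq on GRCm38.p6, with strands from a RefSeq promoter table for 27025 genes and from GENCODE for 18263, which covered 90.6% of 49997 genes. Mature miRNA sequences had an entry for 268 of 328 names in WT, 381 of 459 in replicate 1 and 321 of 379 in replicate 2. Shares carry exact Clopper-Pearson 95% intervals for counting error. Reads per library are not in the files, so depth is given as entries per library. The collapsing and overlap steps were tested on simulated data.

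The clusters and the gene lists were chosen with earlier results of these data known. Named were the 10 most frequent pairs per library, with and without a common seed, the 5 coordinates with the most numbers and the 5 genes with the most co-listed clusters per library, the first 20 genes with overlap in all 3 libraries (for all clusters and for those without a common seed), and list members. Some genes that this rule names are not reported here. Alternatives covered score, seed, enrichment, overlap and gene end settings. No target site sequence is printed, since a genome of build mm10 was not used here.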

Additional observations from a re-analysis of the deposited data

How the results depend on the processing

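With entries of a score of at least 5 only, co-listed clusters were 7.96% in WT, 4.92% in replicate 1 and 3.45% in replicate 2. Overlap in place of identical coordinates gave the same shares, since no coordinates of a library overlapped on the same strand. On enriched AGO2 clusters, a −log10 p of at least 5 gave 36.8% in WT and 35.2% in replicate 1, a log2 of at least 1 gave 66.8%, 61.8% and 60% in WT, replicate 1 and replicate 2, and overlap over at least 0.5 of the target cluster gave 37.4% in WT and 33.8% in replicate 1. The terminal 500 nt held 16.6%, 15.7% and 16.4% and the terminal 2000 nt 44.8%, 37.9% and 43.9%. In all 15 of these AGO2 and gene end alternatives co-listed clusters lay above clusters of a single number. Found again in another library were 35.9% in WT and 39.9% in replicate 1 with overlap over at least 0.5 of both clusters, and 30.3%, 32.6% and 44.7% with at least 1 pair in common. The mean over the *Mov10* Deletion libraries was 4.32% without replicate 1 and 6.14% without replicate 2. Of 60 alternatives, 39 stayed within the interval or SD of the value reported, the removal of rRNA and the mitochondrial genome among them (added after seeing the data). These 39 include the overlap setting, which could not change the shares. They also include the means without 1 replicate, which with 2 libraries always lie within the SD.

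The design has 1 WT library, so no difference between genotypes was tested. A co-listed cluster can hold separate sites, and 145, 123 and 58 co-listed clusters abutted another one. A score of 3 is the lowest listed, and a second miRNA below it was not detectable. No paired analysis was possible because the result comes from no test.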

Other observations

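Some loci outside rRNA with many numbers fell outside the rules above and were chosen after their values were seen. *App*, the amyloid precursor protein gene, held a cluster at chr16:84954522-84954643 in WT that listed 7 numbers, led by miR-17-5p at 27.0, miR-106b-5p at 12.4 and miR-20a-5p at 11.5, all of 1 seed. The overlapping cluster in replicate 1 listed 9 numbers, led by miR-17-5p at 22.0. *Igf2*, an imprinted growth factor, held a cluster in WT with 7 numbers, led by miR-16-5p at 23.8 and miR-15a-5p at 11.0, and another in replicate 1 led by miR-143-3p at 24.0. A second cluster of *Malat1* was led by miR-16-5p in all 3 libraries, at 73.0, 67.7 and 27.9, with miR-15a-5p at 50.7, 65.0 and 19.9. *Ttr*, which encodes transthyretin of the choroid plexus, listed miR-125 with a highest score of 20.7 in WT, 23.9 in replicate 1 and 9.60 in replicate 2 and miR-9 with 35.7, 13.8 and 13.6.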
